A study of Rattus norvegicus with 43 samples.

Results

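Excess folic acid was compared with a sufficient supply after 21 days of culture in A7r5, an established line of smooth muscle cells that came from embryonic rat aorta. The comparison comprised all 10 arrays labelled for day 21 with 100 ng/ml folic acid (excess, replicates 1 to 5) or with 10 ng/ml (sufficient, replicates 1, 2, 3, 4 and 6), out of 43 arrays in the series. The other 33 arrays held the same cells at 7, 14 or 21 days in these media or in deficient medium with 2.5 ng/ml. All media were custom made on a DMEM base, no group carried an engineered gene, and A7r5 is a single established line, so no other donor or vessel is represented. Total RNA was labelled with a 3' amplification kit and hybridised to Affymetrix Rat230_2 arrays, and expression is given as deposited GCRMA values on the log2 scale. Nothing in the labels tells whether the replicates of a group were grown as separate cultures. The p-values then reflect the scatter among these arrays alone, and that scatter may be technical.

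Folate coenzymes carry the carbon units used to make thymidylate and purines for DNA and to remake methionine, the source of S-adenosylmethionine for methylation. Arterial smooth muscle cells in culture can divide or can leave the cell cycle and accumulate contractile proteins. A7r5 cells also switch on genes of striated muscle when they become confluent and quiescent.

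The cell line matched its label on smooth muscle markers. All 12 were above the filter on low values (log2 above 4 in at least 4 of the 43 arrays), and 10 of 12 lay above 8 in sufficient medium. Their summed level on the log2 scale was 15.94 to 16.00 in excess arrays and 16.24 to 16.42 in sufficient arrays. Of the markers of other cell types, 0 of 11 macrophage and 0 of 8 adipocyte genes measured were above the filter, and the endothelial genes Flt1 and Vwf were (5.08 and 3.72 in excess, 5.03 and 3.88 in sufficient medium), while Pecam1, Cldn5 and the other 8 were not. Of 11 fibroblast markers measured, 5 were above the filter, 3 of them higher and 1 lower in excess medium. The higher ones were S100a4 (13.63 against 13.30), Lum (5.30 against 2.42) and Col14a1 (2.83 against 2.27), and Pdpn was lower (7.95 against 8.64). Col14a1 lay near background in both groups and Lum in sufficient medium. The summed level of the fibroblast markers ran from 13.84 to 14.02 in excess and from 13.61 to 13.88 in sufficient arrays. Pdgfra, Dcn and Dpt were below 3 in both groups. Of 14 neuronal and neuroendocrine markers, 5 were above the filter and 3 lower in excess medium (Scg2, Uchl1 and Vgf), while Chgb did not pass (9.50 against 9.61). Their summed level was 10.23 to 10.71 in excess and 11.97 to 12.16 in sufficient arrays, with Chga and Snap25 below 3. Of 10 epithelial markers, Krt8 (8.12 against 8.88) and Krt14 (3.33 against 3.7) were above the filter and both lower. The summed level of this set was 8.27 to 8.54 in excess and 8.80 to 9.21 in sufficient arrays, with Epcam and Cdh1 below 3. The share of the gene differences below that such markers account for was not tested. In bulk RNA, a change in the number of cells of one state and a change in RNA per cell cannot be told apart.

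The control ratio used here as a measure of RNA integrity differed between the groups. The ratio of the 3' to the 5' control probe set for beta-actin, which rises as RNA is degraded, was 2.96, 3.93, 3.35, 3.05 and 3.18 in sufficient replicates 1, 2, 3, 4 and 6. It was 3.72, 3.39, 6.90, 4.94 and 5.15 in excess replicates 1 to 5, so that replicates 3, 4 and 5 lay above every sufficient array (two-sided exact permutation test on log2 ratios, p = 0.0317, the smallest possible being 0.00794). Results are therefore also given without arrays of a ratio above 4, a rule chosen after the ratios had been seen, which left 2 excess and 5 sufficient arrays at day 21. The serial numbers in the titles run to 45 in group order and then out of order. Each day 21 group had 3 arrays up to serial 45 and 2 above it, so a possible array series cut at 45 was balanced. The later serials were 50 and 52 in sufficient and 55 and 56 in excess medium (replicates 3 and 5). Serials 53 to 56 were all excess arrays, of day 14 or day 21. Among the later arrays such a run cannot be told apart from excess medium or RNA integrity.

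Excess medium at day 21 changed expression of a large part of the genes measured. Of 9093 genes tested, 3972 (43.7%) passed an adjusted p of 0.05 in limma, 2222 higher (24.4%) and 1750 lower (19.2%) in excess medium. The median over all genes was 0.03 (log2). At least 2-fold differences were seen for 147 higher and 131 lower genes, and at least 4-fold ones for 7 higher and 18 lower genes. Values of the 5 excess and 5 sufficient arrays did not overlap for 2492 genes (27.4%). Without arrays of a beta-actin ratio above 4, 2619 genes passed, 1382 higher and 1237 lower. Of the 3972 genes, 3966 kept their sign, but the arrays left were among those that gave these calls. The kept signs are therefore no separate check. The first principal component of the 10 arrays held 61.3% of the variance and separated the groups.

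Transcripts of dividing cells were higher in excess arrays. Of 42 tested mitosis genes, 40 were higher and 0 lower in excess medium (median log2 fold change 1.11, against 0.03 over all genes), and in 40 the groups did not overlap. Of 39 replication genes, 38 were higher and 0 lower (median 0.76). Of all genes tested, 24.4% were higher and 27.4% did not overlap between the groups. In single arrays the median deviation of the mitosis list from the mean of the sufficient arrays lay between 1.07 and 1.13 in the 5 excess arrays and between -0.09 and 0.06 in the sufficient ones. Without arrays of a beta-actin ratio above 4 the counts were 40 and 33, with medians of 1.09 and 0.72.

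Cdc20, an activator of the ubiquitin ligase that triggers anaphase, had the largest difference of the mitosis list. It stood at 5.67, 5.97, 5.71, 5.14 and 5.30 in sufficient replicates 1, 2, 3, 4 and 6 and at 7.68, 7.27, 7.72, 7.72 and 7.63 in excess replicates 1 to 5, the order of replicates used throughout. Every excess array lay above every sufficient array, with a difference of 2.05 ± 0.13 (log2, SE), or 4.14-fold, at adjusted p = 8.96e-16 in limma. Cdca3, a factor for entry into mitosis, was 6.32, 6.31, 6.46, 6.41 and 5.79 in sufficient and 7.85, 7.90, 8.29, 8.08 and 8.31 in excess arrays, a difference of 1.83 ± 0.13. Its groups were also fully apart. Mki67, which encodes the proliferation marker Ki-67, was 10.47 ± 0.17 in sufficient and 11.59 ± 0.09 in excess medium (SD, n = 5 and 5), a difference of 1.13 ± 0.07. The spindle motors Kif11 and Kif20a rose by 1.80 ± 0.14 and 1.67 ± 0.17, the kinase Melk by 1.68 ± 0.13, and Racgap1, which acts in cytokinesis, by 1.53 ± 0.08.

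The promoters of Cdc20 and Cdca3 are shown because mitosis genes share short elements close to their starts. Both are the 120 bases before the RefSeq start on GRCr8, 5′ to 3′ on the gene's strand, with CCAAT on either strand and, in Cdc20, the cell cycle homology region TTTGAA in capitals. They lie at chr5:137255800-137255919 on the minus strand and at chr4:159321083-159321202 on the plus strand.
Cdc20: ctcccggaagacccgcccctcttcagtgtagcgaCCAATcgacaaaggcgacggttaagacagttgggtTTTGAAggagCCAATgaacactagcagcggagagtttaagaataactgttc
Cdca3: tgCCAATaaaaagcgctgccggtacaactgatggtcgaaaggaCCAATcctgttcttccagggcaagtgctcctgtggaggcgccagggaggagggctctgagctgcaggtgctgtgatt

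In Cdc20, CCAAT began 86 and 41 bases before the start with TTTGAA between them, 51 bases before the start. Among the 36 mitosis genes tested that matched a RefSeq promoter (250 bases before to 50 after the start), 29 held CCAAT (80.6%) and 23 held TTTGAA (63.9%), on either strand. Of all 27457 promoters 37.7% and 18.1% held them, and of the 7714 promoters of genes tested 38.7% and 11.4%. Of 34 replication promoters 22 held CCAAT (64.7%) and 3 TTTGAA (8.82%). These shares describe the letters in the windows and were not tested.

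Among replication genes, Mcm7, a subunit of the replicative helicase, rose most. It was 8.71, 8.80, 8.69, 8.65 and 8.57 in sufficient and 10.34, 10.14, 10.34, 10.28 and 10.20 in excess arrays, a difference of 1.58 ± 0.08 (adjusted p = 6.84e-19 in limma), and the groups did not overlap. Uhrf1, a partner of the maintenance methyltransferase Dnmt1, rose by 1.23, the DNA ligase Lig1 by 1.06 ± 0.10 and Mcm2 by 0.96 ± 0.07. Against 24.4% and 19.2% of all genes tested, 11 of 31 DNA damage and repair genes were higher and 0 lower (median 0.16). Among these were Blm, a helicase of recombination (1.30), the checkpoint kinase Chek1 (0.99 ± 0.09) and Fancd2 of crosslink repair (0.91 ± 0.09), whose level stayed below 5. Of genes of base excision repair, Ung, Parp2, Apex1 and Lig3 rose, by 0.85, 0.73, 0.29 and 0.20, the last at an adjusted p of 0.0497 in limma, while Ogg1 (0.10) and Polb (-0.08) did not pass.

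Genes of sterol synthesis were the other group that moved almost entirely upward. These genes are held down when membrane cholesterol is plentiful and are driven by the transcription factor encoded by Srebf2. Of 19 tested, 17 were higher and 0 lower, with a median of 0.81, and 15 did not overlap between groups. The shares over all genes tested were 24.4% higher, 19.2% lower and 27.4% without overlap. In single arrays the list median lay between 0.76 and 0.98 in excess and between -0.05 and 0.04 in sufficient arrays. The count was again 17 without arrays of a beta-actin ratio above 4, with a median of 0.91.

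Insig1, which retains the sterol sensor in the endoplasmic reticulum and is itself a target of this system, was 5.86, 5.78, 5.94, 5.85 and 5.94 in sufficient and 8.65, 8.69, 8.70, 9.12 and 8.77 in excess arrays. The groups lay far apart, with a difference of 2.91 ± 0.08 or 7.53-fold (adjusted p = 3.01e-27 in limma), the highest of all genes that met the naming rule. Idi1, the isomerase that supplies dimethylallyl diphosphate, was 5.87, 6.01, 6.15, 6.25 and 6.21 in sufficient and 8.76, 8.71, 8.59, 8.94 and 8.69 in excess arrays, a difference of 2.64 ± 0.09. Again no array of one group reached the other. Sqle, which makes squalene epoxide, rose by 1.55, the demethylases Msmo1 and Cyp51 by 1.30 and 1.11 ± 0.06, Fdps by 1.18 and Srebf2 by 1.17. Sc5d (0.16) and Pmvk (0.23) did not pass.

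The 120 bases before the start of Idi1 are shown as an example of the sterol genes, of which 13 of 15 with a promoter held CCAAT (86.7%). They lie at chr17:66547525-66547644 on the minus strand of GRCr8, with CCAAT, here on the opposite strand as ATTGG, in capitals 66 and 35 bases before the start.
Idi1: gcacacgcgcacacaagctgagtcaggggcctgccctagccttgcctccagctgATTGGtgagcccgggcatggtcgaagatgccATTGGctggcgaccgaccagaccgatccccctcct

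Fatty acid genes did not follow sterol genes as a group, with 6 of 21 higher and 8 lower (median -0.09), where 24.4% and 19.2% of all genes were. The counts were 3 and 5 without arrays of a beta-actin ratio above 4. The members that rose were those of desaturation and synthesis, among them the desaturases Fads1 (0.92 ± 0.09) and Fads2 (0.62 ± 0.08, a level below 5) and the synthase Fasn (0.47 ± 0.08). Those that fell included Cpt1a and Acadl of oxidation, by 0.51 ± 0.10 and 0.29 ± 0.06. Scd2, a stearoyl-CoA desaturase outside the list, was 8.70, 8.57, 8.74, 8.59 and 8.37 in sufficient and 10.79, 11.00, 10.92, 11.20 and 11.10 in excess arrays. Its groups were fully separate, at 2.41 ± 0.09 or 5.30-fold.

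**Figure D1:**
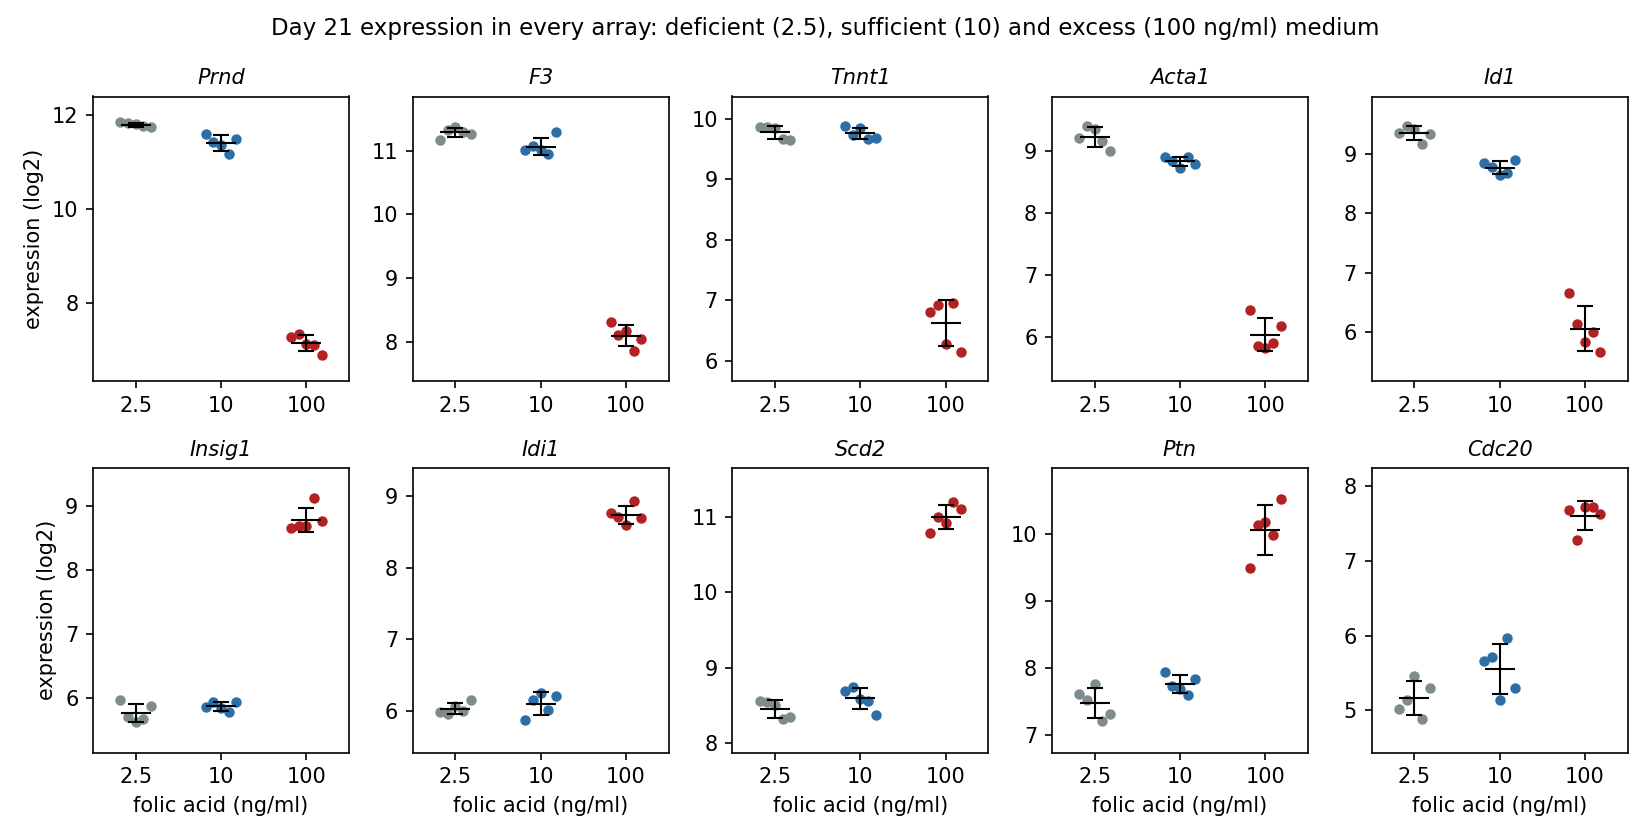
Expression (log2) of 10 genes in each day 21 array, against the folic acid of the medium in ng/ml. Points are arrays, bars the mean and SD of 5. The excess arrays (100 ng/ml) of every gene shown lie apart from the sufficient ones (10 ng/ml), Prnd at 6.89 to 7.34 against 11.16 to 11.59, while the mean of the deficient arrays (2.5 ng/ml) lies closer to that of the sufficient ones in each gene.

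The genes that fell most were of several kinds. Prnd, which encodes the prion-like protein doppel, was 11.59, 11.16, 11.42, 11.36 and 11.49 in sufficient and 7.29, 7.34, 7.14, 7.1 and 6.89 in excess arrays. The gap between the groups was wide in every array, and the difference of -4.25 ± 0.10, or 19.1-fold, was the lowest of all genes that met the naming rule (adjusted p = 3.12e-30 in limma). F3, tissue factor, the starter of coagulation, was 11.00, 10.96, 11.07, 11.01 and 11.29 in sufficient and 8.32, 8.11, 8.17, 7.86 and 8.04 in excess arrays, a difference of -2.96 ± 0.10. Tnc, the matrix protein tenascin C, fell by 2.71 ± 0.13 to 3.52 ± 0.19, a level near background where a fold is inexact. Scg2, a secretory granule protein, was 11.56 ± 0.09 in sufficient and 9.12 ± 0.24 in excess medium, a difference of -2.44 ± 0.10. Plcxd2 fell by 2.59 ± 0.12 and the uncharacterised LOC100912310 by 2.31 ± 0.18.

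Genes of striated muscle fell as a group. Of 31 tested, 23 were lower and 3 higher, with a median of -0.66, where 19.2% of all genes tested were lower. The list median in single arrays lay between -0.67 and -0.59 in excess and between -0.07 and 0.07 in sufficient arrays. Without arrays of a beta-actin ratio above 4 the counts were 20 lower and 3 higher at a median of -0.66. Over 23 alternative settings the median ran from -0.76 to -0.13. Of 7 skeletal muscle markers, Acta1, Myh3 (6.74 to 4.62) and Ckm (4.47 to 3.74) fell, and Myod1, Chrna1, Tnnt3 and Myog, the last 3 below the filter, stayed under 4 in both groups. Their summed level was 9.16 to 9.33 in sufficient and 6.93 to 7.27 in excess arrays.

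Tnnt1, troponin T of slow fibres, was 9.88, 9.67, 9.73, 9.85 and 9.69 in sufficient and 6.80, 6.92, 6.27, 6.96 and 6.15 in excess arrays, a difference of -3.14 ± 0.15 or 8.83-fold. Acta1, skeletal alpha-actin, was 8.90, 8.90, 8.84, 8.73 and 8.78 in sufficient and 6.43, 5.86, 5.82, 5.90 and 6.18 in excess arrays, at -2.79 ± 0.11 (adjusted p = 1.31e-22 in limma). Neither gene had an array that overlapped with the other group. The myosin chains Myl2 and Myh2 fell by 2.34 ± 0.13 and 2.70 ± 0.17, both to below 5. Cox6a2, a cytochrome oxidase subunit found in heart and skeletal muscle, fell by 1.91 ± 0.10, and titin (Ttn) by 1.48. Tnnt2, cardiac troponin T, went the other way, from 11.73 ± 0.05 to 12.59 ± 0.09, a rise of 0.86 ± 0.06. The other 2 that rose were Ckmt2, a mitochondrial creatine kinase (0.63 ± 0.14), and Tnnc2 (0.14 ± 0.06, adjusted p = 0.0399), a call that was lost under 10 of 23 alternative settings.

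Smooth muscle contractile genes fell by less. Of 30 tested, 17 were lower and 0 higher, with a median of -0.27, where 19.2% and 24.4% of all genes were. Without arrays of a beta-actin ratio above 4, 14 were lower. Mylk, the kinase that starts contraction by phosphorylating myosin, was 12.36, 12.27, 12.21, 12.24 and 12.28 in sufficient and 11.23, 11.11, 11.21, 11.17 and 11.20 in excess arrays. The groups did not overlap, and the difference was -1.09 ± 0.07 (adjusted p = 4.32e-15 in limma). Myh11, smooth muscle myosin, fell by 0.89 ± 0.11, calponin (Cnn1) by 0.82 ± 0.05, the transcriptional coactivator Myocd by 0.79, integrin alpha 8 (Itga8) by 0.78 ± 0.12 and Tagln by 0.39 ± 0.05. Acta2, smooth muscle alpha-actin, was 13.91 ± 0.21 in sufficient and 13.60 ± 0.11 in excess medium and did not pass (-0.31 ± 0.17, adjusted p = 0.134). Smtn, Vcl, Tpm2 and Cald1 also differed by less than 0.10 and did not pass.

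The promoters of Acta1 and Cox6a2 are shown for the elements read by the muscle factors SRF (the CArG box) and MEF2, in capitals. Both are the 120 bases before the start on the minus strand of GRCr8, at chr19:68784195-68784314 and chr1:192219717-192219836.
Acta1: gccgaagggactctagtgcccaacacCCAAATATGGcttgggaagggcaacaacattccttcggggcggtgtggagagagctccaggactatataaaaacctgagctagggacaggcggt
Cox6a2: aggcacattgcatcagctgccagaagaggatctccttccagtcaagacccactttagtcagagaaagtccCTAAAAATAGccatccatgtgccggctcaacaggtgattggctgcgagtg

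The CArG box of Acta1 began 94 bases and the MEF2 site of Cox6a2 50 bases before the start. Of 26 promoters of striated muscle genes tested, 7 held a MEF2 site (26.9%), against 3.37% of all promoters and 1.48% of those of genes tested. A CArG box was in 1 of these 26 (3.85%) and in 4 of 24 smooth muscle promoters (16.7%), against 1.64% and 1.40%. The TEAD site GGAATG was in 8 of 26 (30.8%) and 8 of 24 (33.3%), against 13.9% and 11.3%.

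**Figure D2:**
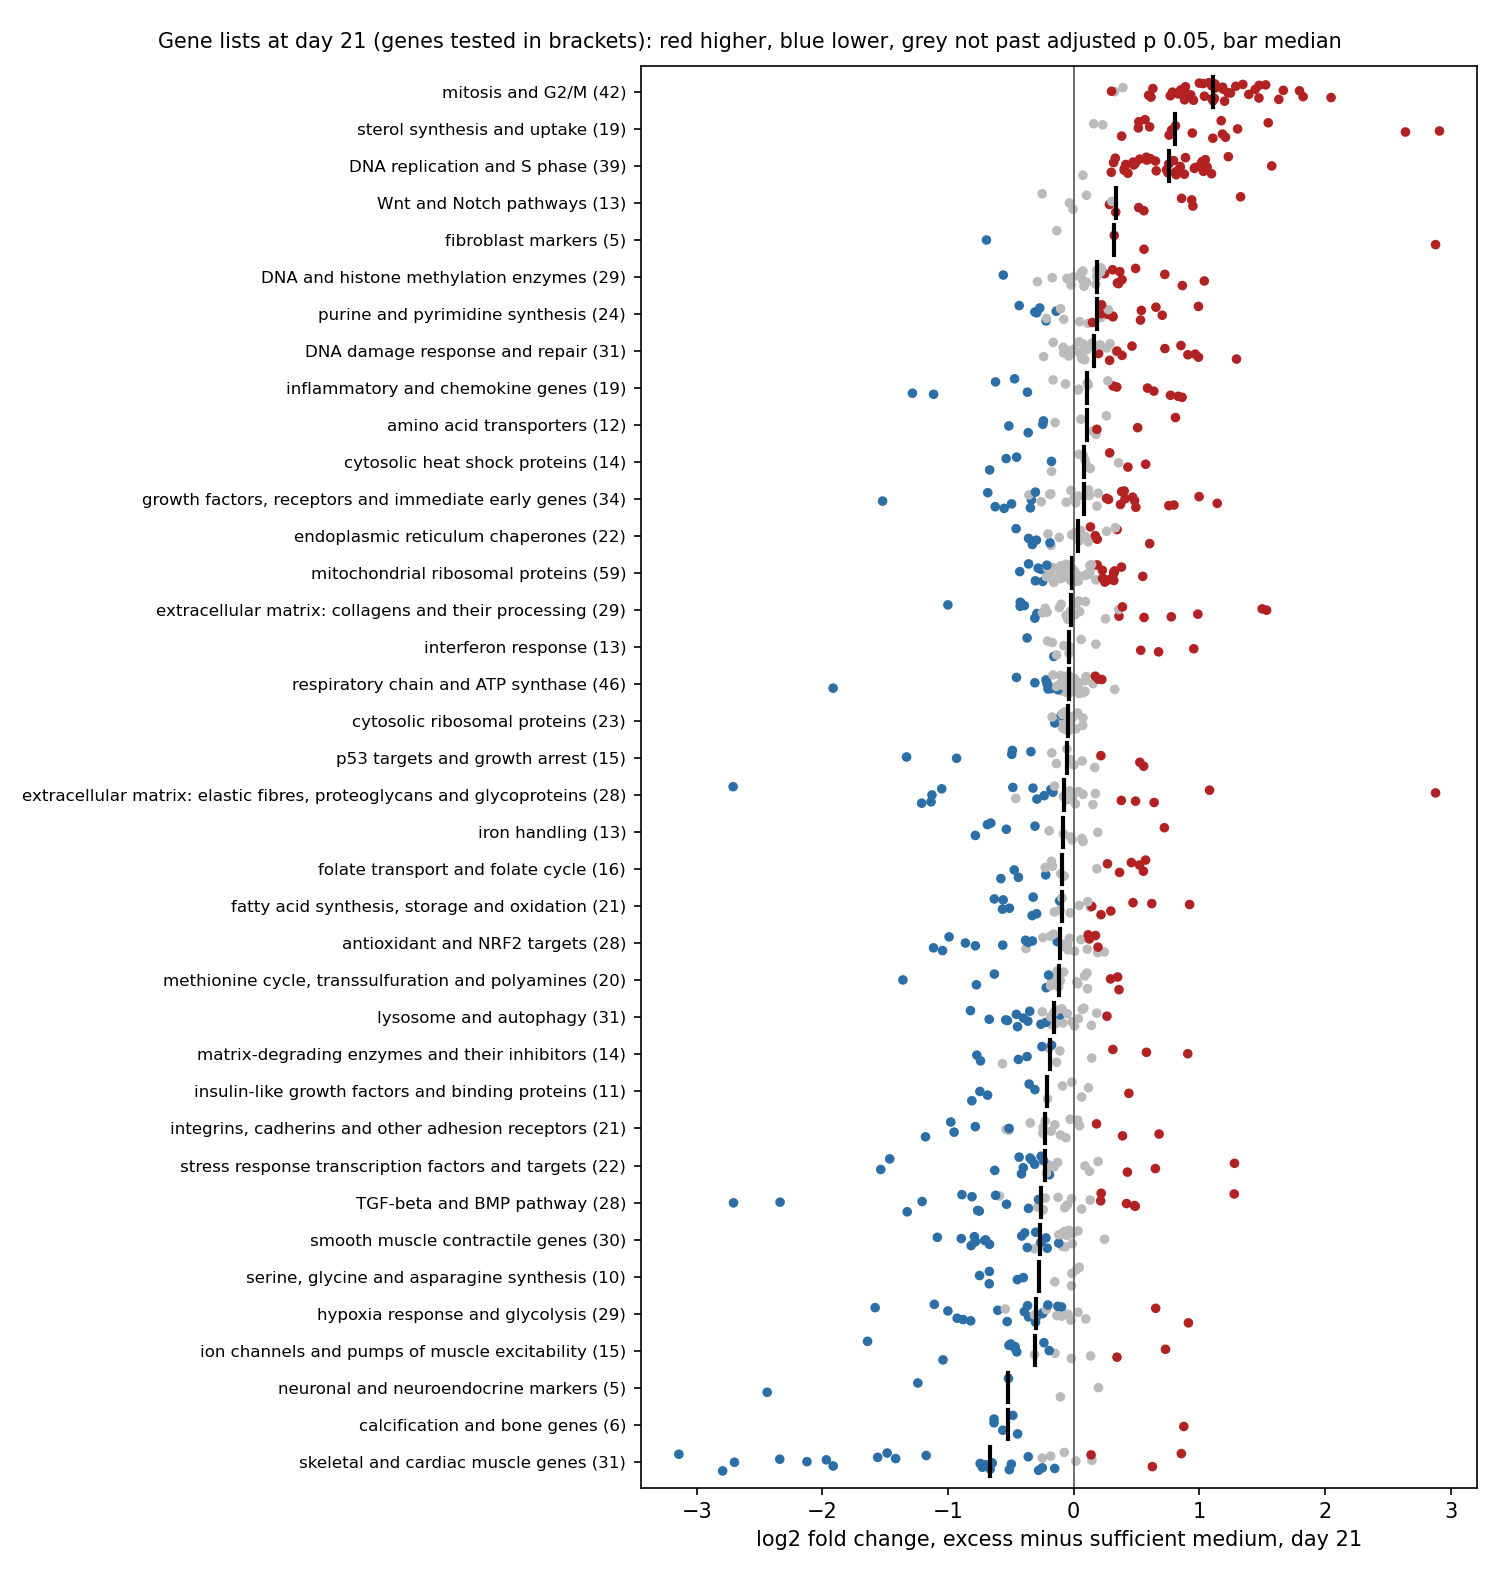
Log2 fold change between excess and sufficient medium at day 21 for each tested gene (points) of the lists with at least 5 tested genes, ordered by their median (black bars). Mitosis, sterol and replication genes, with medians of 1.11, 0.81 and 0.76, lie at the top, and striated muscle genes, with a median of -0.66, at the bottom.

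Folate genes themselves moved in both directions. Of 16 tested, 6 were higher and 4 lower, with a median of -0.09 and a range from -0.58 to 0.57. The shares over all genes tested were 24.4% higher and 19.2% lower. Of the transporters, Slc19a1, the reduced folate carrier, lay near background and did not pass (-0.18 ± 0.11, adjusted p = 0.188), and the receptor gene Folr1 fell by 0.44 ± 0.11 from a level of 4.60 ± 0.17. Slc46a1, Slc25a32, Mtr and Cbs were below the filter. Fpgs, which adds the glutamate tail that keeps folates in the cell, did not pass (-0.07 ± 0.09), and Ggh, which removes it, fell by 0.22 ± 0.06.

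Among the enzymes, Tyms, thymidylate synthase, was 5.16, 5.65, 5.03, 5.67 and 5.67 in sufficient and 6.02, 5.76, 6.07, 5.97 and 6.23 in excess arrays. The highest sufficient arrays came close to the lowest excess array, and the difference was 0.57 ± 0.14 (adjusted p = 0.00125 in limma). Mthfd1, the cytosolic trifunctional enzyme, rose by 0.37 ± 0.07, Mtrr, which reactivates methionine synthase, by 0.52 ± 0.10, and Mthfd1l, below 5, by 0.56 ± 0.15. Shmt1 and Shmt2, which pass the carbon unit of serine to folate, rose by 0.27 ± 0.09 and 0.46 ± 0.13, and Shmt2 overlapped between the groups. Mthfd2, the mitochondrial dehydrogenase, was 7.12, 7.23, 7.13, 7.03 and 7.04 in sufficient and 6.90, 6.53, 6.49, 6.56 and 6.71 in excess arrays, a fall of 0.47 ± 0.14. Without arrays of a beta-actin ratio above 4, 2 folate genes were higher and 3 lower. The call of Tyms was then lost (0.45, adjusted p = 0.100 in limma), as was that of Mthfd2 (-0.40, adjusted p = 0.111). Those of Mthfd1l, Shmt1, Shmt2 and Ggh were also lost, while Mthfd1 and Mtrr kept theirs (adjusted p = 0.00635 and 0.0123).

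In the methionine cycle and polyamine list, 3 of 20 were higher and 5 lower, and 0 higher and 4 lower without arrays of a beta-actin ratio above 4. For this list and those that follow here, the shares over all genes tested were 24.4% higher and 19.2% lower. Mat1a, the liver type of S-adenosylmethionine synthetase, fell by 1.36 ± 0.09, and Odc1, which begins polyamine synthesis, by 0.63 ± 0.05. Mat2a, the type of most tissues, rose by 0.29 ± 0.10 in the probe set used, but its other probe set pointed the other way. Ahcy (0.11 ± 0.10) and Cth (-0.18 ± 0.12) did not pass. Of 24 purine and pyrimidine genes, 11 were higher and 6 lower (median 0.18), with thymidine kinase Tk1 higher by 0.99 ± 0.10 and the ribonucleotide reductase subunit Rrm1 by 0.66 ± 0.05. Of 29 methylation enzymes, 10 were higher and 1 lower (median 0.18). Without arrays of a beta-actin ratio above 4, these counts were 6 higher and 5 lower for purine and pyrimidine genes and 5 and 0 for methylation enzymes. Ezh2, which methylates histone H3, rose by 1.04 ± 0.08 and Dnmt1 by 0.87 ± 0.14.

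Genes of the amino acid stress response were mostly lower. Of 22, 12 were lower and 3 higher (median -0.23), where 19.2% and 24.4% of all genes were. Without arrays of a beta-actin ratio above 4, the counts were 8 lower and 2 higher. Ddit3, a stress-induced transcription factor, was 9.34, 9.10, 9.27, 9.38 and 9.34 in sufficient and 7.91, 7.55, 7.57, 8.18 and 7.55 in excess arrays, a difference of -1.54 ± 0.11. Trib3, a pseudokinase induced by the same pathway, was 7.96, 7.98, 7.90, 7.65 and 7.60 in sufficient and 6.42, 6.44, 6.46, 6.15 and 6.30 in excess arrays, a difference of -1.46 ± 0.13. All excess arrays of both genes lay below all sufficient ones. Atf4, the factor that drives this response, fell by 0.42 ± 0.07, and the asparagine and serine synthesis genes Asns and Phgdh by 0.67 ± 0.07 and 0.67. The 3 that rose were Nupr1 (1.28 ± 0.06), Ddit4 (0.65 ± 0.11) and Cebpb (0.43 ± 0.12).

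The promoter of Trib3 is shown for the core of the amino acid response element, TGATGNAA, here on the opposite strand in capitals 21 bases before the start. It covers 120 bases at chr3:161275534-161275653 on the minus strand of GRCr8.
Trib3: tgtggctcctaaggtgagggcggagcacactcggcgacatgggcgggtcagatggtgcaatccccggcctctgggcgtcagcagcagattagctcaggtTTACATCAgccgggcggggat

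This core was in 8 of 19 promoters of the stress list (42.1%), against 3.82% of all promoters and 1.87% of those of genes tested. Nupr1, which rose, and Chac1, which fell by 0.63, were both among the 8. The E-box CACGTG, read by carbohydrate-response factors and MYC, was in 3 of the 19 (15.8%), 2 of 15 sterol promoters (13.3%), 4 of 34 replication (11.8%) and 3 of 36 mitosis promoters (8.33%), against 6.65% and 10.1%.

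Txnip, which restrains glucose uptake and binds thioredoxin, was 7.49, 7.44, 7.68, 7.47 and 7.17 in sufficient and 9.48, 8.84, 8.90, 9.11 and 8.86 in excess arrays. The groups were fully apart at 1.59 ± 0.14 (adjusted p = 1.27e-11 in limma). In deficient medium it stood at 5.87. Trib3 stood there at 8.78 and Ddit3 at 9.96, so that each of these genes ran in the order of the doses, the comparisons sharing the sufficient arrays. Of 29 hypoxia and glycolysis genes, 18 were lower and 2 higher (median -0.30), where 19.2% and 24.4% of all genes were. Without arrays of a beta-actin ratio above 4, 12 were lower. The phosphofructokinase Pfkp fell by 1.58 ± 0.11, Vegfa, the endothelial growth factor, by 1.11 ± 0.09 and the collagen prolyl hydroxylase P4ha2 by 1.00 ± 0.07, while the muscle isoform Pfkm rose by 0.65 ± 0.11 and adrenomedullin (Adm) by 0.91 ± 0.10.

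**Figure D3:**
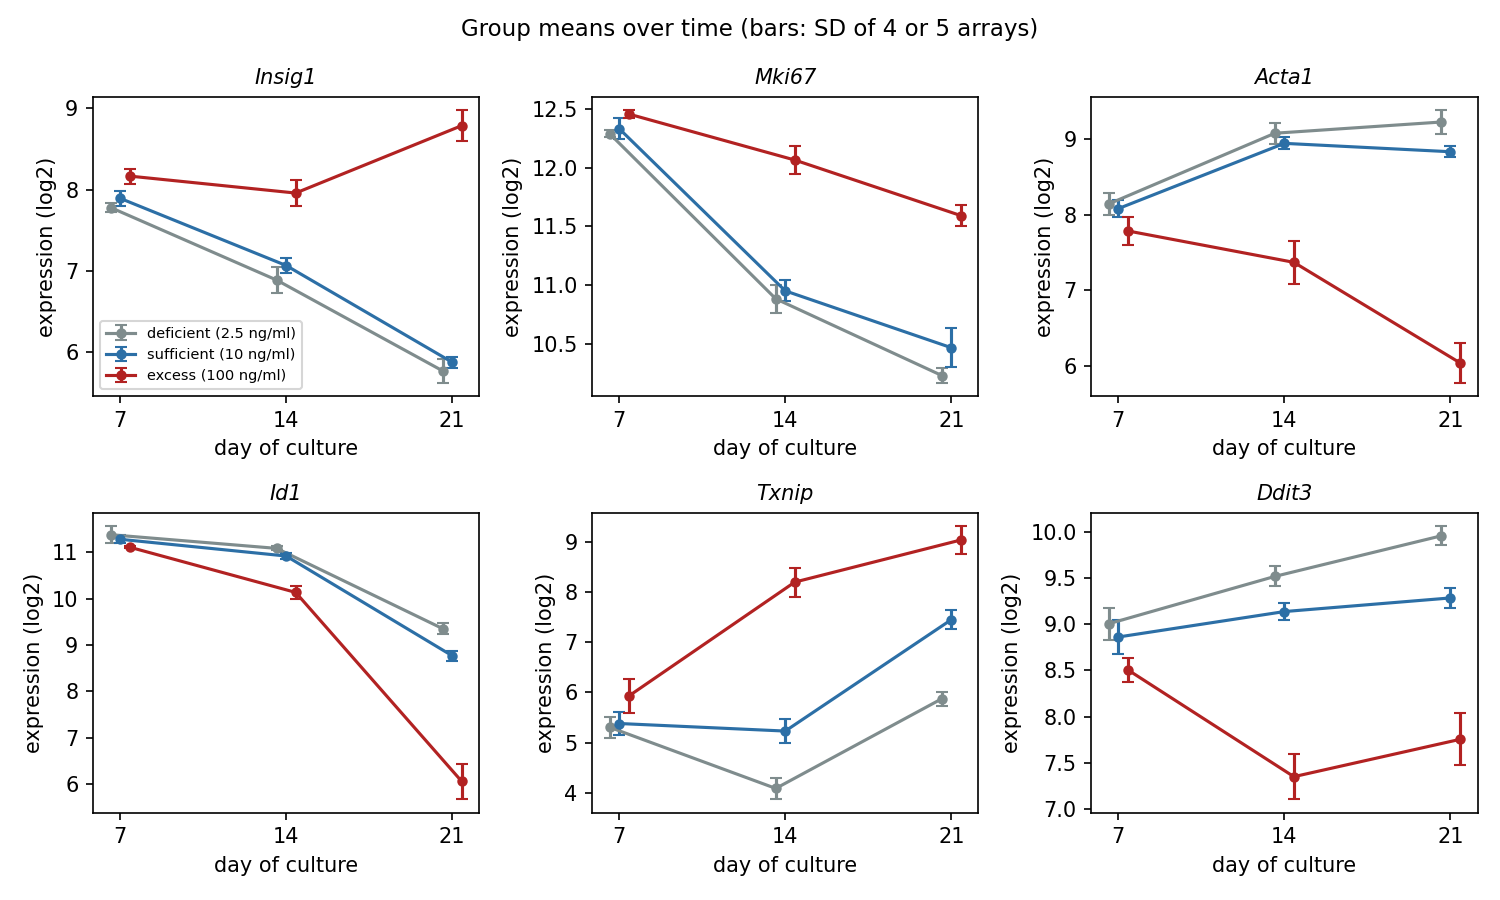
Group means (log2, bars SD of 4 or 5 arrays) of 6 genes at days 7, 14 and 21 in deficient, sufficient and excess medium. In sufficient medium Insig1 ran from 7.89 to 5.87 and in excess medium from 8.17 to 8.79, whereas Id1 fell in both, to 8.77 and 6.06.

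In the TGF-beta and BMP list, 12 of 28 were lower and 6 higher (median -0.26), where 19.2% and 24.4% of all genes were. The median was -0.14 with the beta-actin ratio as a covariate and -0.12 with no filter on level, and 12 were lower and 3 higher without arrays of a ratio above 4. Id1, an inhibitor of helix-loop-helix factors and a target of BMP signals, was 8.84, 8.67, 8.78, 8.64 and 8.90 in sufficient and 6.66, 6.14, 5.84, 6.01 and 5.67 in excess arrays. Id2 was 8.57, 9.29, 8.47, 8.97 and 8.87 in sufficient and 6.61, 6.59, 6.68, 6.12 and 6.49 in excess arrays. Neither overlapped, and the differences were -2.71 ± 0.10 and -2.34 ± 0.15. Id3 fell by 1.21, the ligand Tgfb3 by 0.89 ± 0.06 and Bmp7 by 0.76, while the BMP antagonist Grem1 rose by 0.42, follistatin (Fst) by 0.48 ± 0.09 and the matrix protein Tgfbi by 1.28 ± 0.11. Smad6 (-0.23) and Smad7 (-0.12), inhibitors induced by the pathway, did not pass. Of 13 Wnt and Notch genes, 8 were higher and 0 lower (median 0.34), where 24.4% and 19.2% of all genes were. The higher ones were led by the factor Tcf7 (1.33 ± 0.19) and by Notch1 and Nrarp (0.94 ± 0.13 and 0.86 ± 0.10).

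Of 29 collagen genes, 7 were higher and 7 lower, close to the shares of all genes tested (24.4% and 19.2%). Col6a1, Col6a3 and Col3a1 rose by 1.54 ± 0.12, 1.5 ± 0.19 and 0.99 ± 0.11, and Col25a1, outside the list, by 2.72 ± 0.16 from 4.30 ± 0.33. Lum, a proteoglycan that binds collagen fibrils, was 2.14, 2.65, 2.10, 2.62 and 2.57 in sufficient arrays, near background, and 4.33, 5.00, 5.84, 5.68 and 5.63 in excess arrays. Replicate 1 was the lowest of these, and the difference of 2.88 ± 0.20 is inexact at such levels. Ptn, the growth factor pleiotrophin, was 7.76 ± 0.13 and 10.06 ± 0.37, a rise of 2.30 ± 0.14. Of 21 adhesion receptor genes, 3 were higher and 5 lower. Cd44 fell by 1.18 ± 0.11, while the cadherins Cdh2 and Cdh11 rose by 0.68 and 0.39. Of 28 genes of elastic fibres, proteoglycans and glycoproteins, 5 were higher and 11 lower (median -0.08). Ltbp2 and Fbln2 of elastic fibres fell by 1.13 ± 0.14 and 1.13 ± 0.15, while Fbln5 rose by 0.49. Mgp, the calcification inhibitor, rose by 0.88 ± 0.13, while the other 5 tested genes of the calcification list fell (3 without arrays of a beta-actin ratio above 4), the phosphate transporters Slc20a1 and Slc20a2 by 0.63 ± 0.08 and 0.63 ± 0.07.

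Several further lists held more lower than higher genes, and 3 of them are given in detail. Of all genes tested, 19.2% were lower and 24.4% higher. Others included iron handling (5 lower and 1 higher of 13) and insulin-like growth factors with their binding proteins (5 and 1 of 11). Matrix-degrading enzymes (6 and 3 of 14) and the respiratory chain (9 and 3 of 46) were also among these. Of 15 ion channel and pump genes, 9 were lower and 2 higher, with the cation channel Trpc6 at -1.64 ± 0.10 and the sodium pump subunit Atp1b1 at -1.04 ± 0.07. Of 28 antioxidant genes, 10 were lower, 4 higher and 14 not past the threshold, with Gpx1 at -1.04 ± 0.06, Srxn1 at -0.99 ± 0.10, Nqo1 at -0.86 ± 0.08 and Hmox1 at -0.78 ± 0.09. Of 31 lysosome genes, 12 were lower, 1 higher and 18 not past it (median -0.16). Without arrays of a beta-actin ratio above 4, 6 ion channel genes were lower and 2 higher, and 7 antioxidant and 7 lysosome genes were lower with 0 higher in either list. Cytosolic ribosomal proteins stayed close to 0, with 2 of 23 lower and a median of -0.05, and 0 lower without arrays of a beta-actin ratio above 4. Of 19 inflammatory genes, 7 were higher and 5 lower, with complement C1r and C1s at 0.86 ± 0.11 and 0.83 ± 0.12, Il6 at 0.59 ± 0.08, Ccl2 at -1.28 ± 0.23 and Casp4 at -1.11 ± 0.11.

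**Figure D4:**
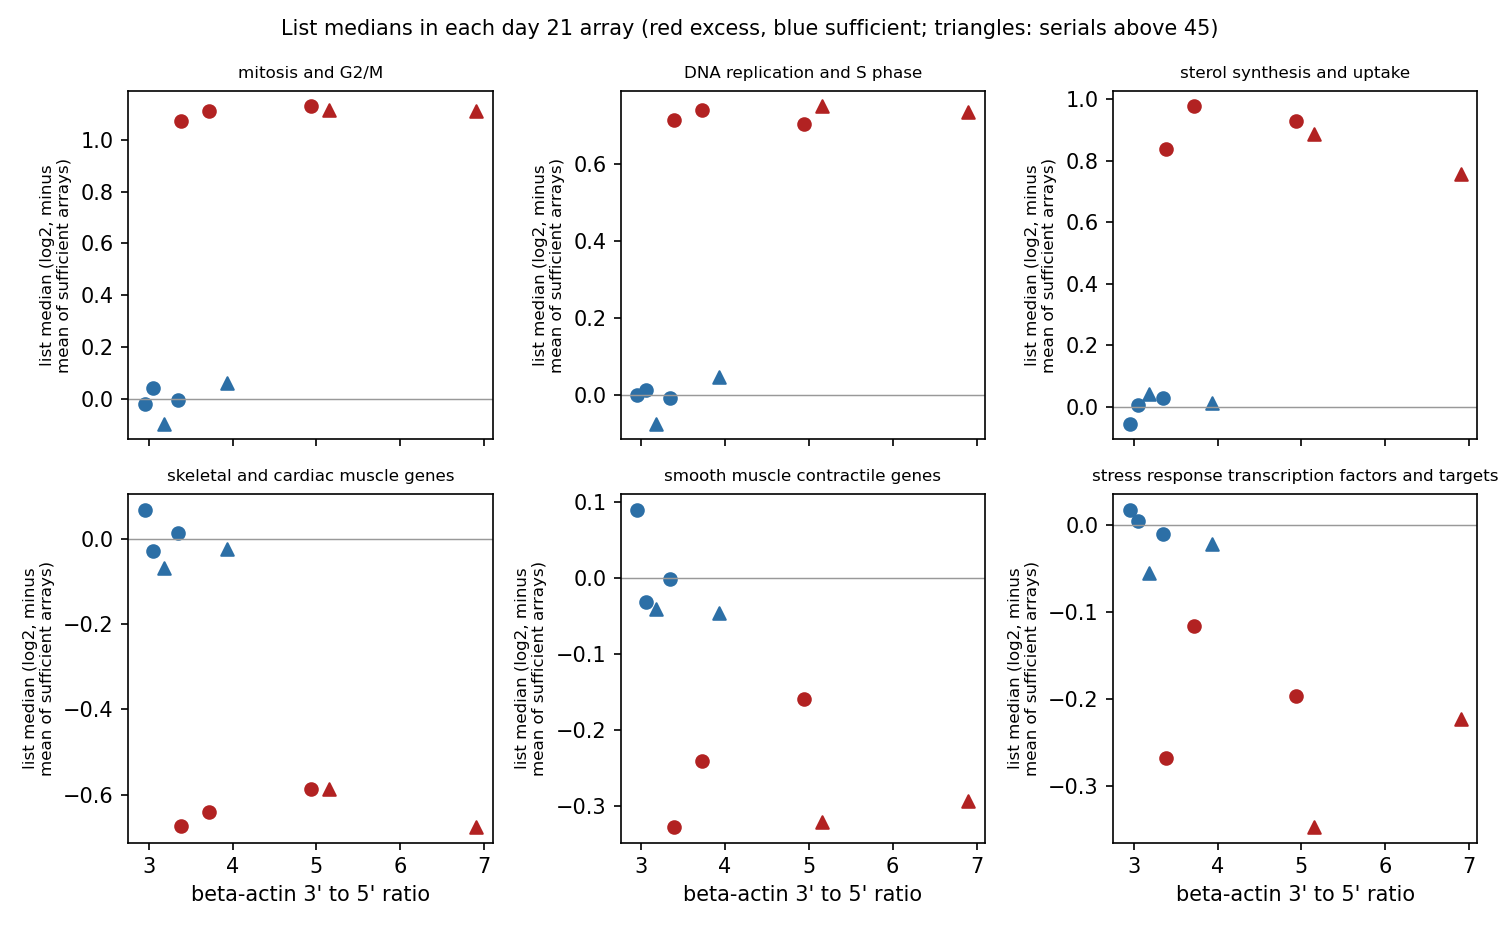
Median deviation (log2) of 6 gene lists from the mean of the sufficient arrays in each day 21 array, against the beta-actin 3' to 5' ratio (no unit) of that array. Red marks excess and blue sufficient arrays, and triangles mark serials above 45. Excess replicates 1 and 2, with ratios of 3.72 and 3.39 inside the range of the sufficient arrays, lie with the other excess arrays, at 1.11 and 1.07 for mitosis.

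The difference at day 21 was compared with that at earlier days, which used other arrays. As at day 21, 3 excess and 0 sufficient arrays of day 14 had a beta-actin ratio above 4. At day 7 these were 0 excess and 2 sufficient arrays. The part of RNA integrity in the likeness of the days was not tested. At day 14, 3742 genes passed (41.2%), and at day 7, 216 (2.38%). Of the 2222 genes higher at day 21, 1342 were also higher at day 14, which is 60.4% of these and 66.1% of the day 14 genes, and 25 were lower. Of the 1750 lower at day 21, 988 were lower at day 14 (56.5% and 57.7%) and 35 higher. Across genes, which are not independent replicates, the log2 fold changes of the days correlated at r = 0.735 for days 21 and 14 and at 0.268 for days 21 and 7.

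The excess effect differed between day 21 and day 7 for 2231 genes (24.5%), 1546 upward and 685 downward, and between day 21 and day 14 for 783 (8.61%), 358 upward and 425 downward, in limma interaction tests. These counts fell to 1222 and 293 without arrays of a beta-actin ratio above 4. Of all genes tested, 22.3% were higher and 18.8% lower in excess medium at day 14. Mitosis genes were already apart at day 14 (40 of 42 higher, median 1.28), and 0 rose further and 5 receded by day 21. In sterol genes 9 of 19 went further up from day 14 (median 0.44 there), and in smooth muscle genes 8 of 30 further down (median -0.15 there). Striated muscle genes were 20 lower at day 14 (median -0.43), and 10 of 31 went further down.

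Single genes show these courses. The excess effect on Insig1 was 0.27 ± 0.09 at day 7, 0.89 ± 0.08 at day 14 and 2.91 ± 0.08 at day 21, and the difference between the last 2 days was 2.02 ± 0.12 (adjusted p = 7.27e-16). For Prnd it was -0.34 ± 0.10, -2.35 ± 0.10 and -4.25 ± 0.10, as its level ran from 9.78 to 11.40 in sufficient and from 9.44 to 7.15 in excess medium. For Cdc20 it was 0.63 ± 0.14, 2.17 ± 0.13 and 2.05 ± 0.13, the last 2 of which did not differ past the threshold (-0.12 ± 0.19, adjusted p = 0.752). Slc29a1, a nucleoside transporter, and Hsd11b1, which regenerates active glucocorticoid, had no call at day 14 (0.04 ± 0.10 and -0.12 ± 0.11) and rose at day 21 by 1.88 ± 0.10 and 1.40 ± 0.11. Id2 (-0.16 ± 0.15 at day 14), Entrep1 (-0.06 ± 0.14) and Mylk (-0.06 ± 0.07) likewise had no call at day 14 and fell at day 21, Entrep1 by 2.12 ± 0.14. Shmt2 was at -0.57 ± 0.13 at day 14 and 0.46 ± 0.13 at day 21, a difference of 1.03 ± 0.19 (adjusted p = 0.000223). Its day 21 rise was lost without arrays of a beta-actin ratio above 4 (0.29, adjusted p = 0.242 in limma), with serials up to 45 alone (0.29, adjusted p = 0.100) and with the replicate block (0.36, adjusted p = 0.0994). The effect on Txnip receded from 2.97 ± 0.14 to 1.59 ± 0.14.

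**Figure D5:**
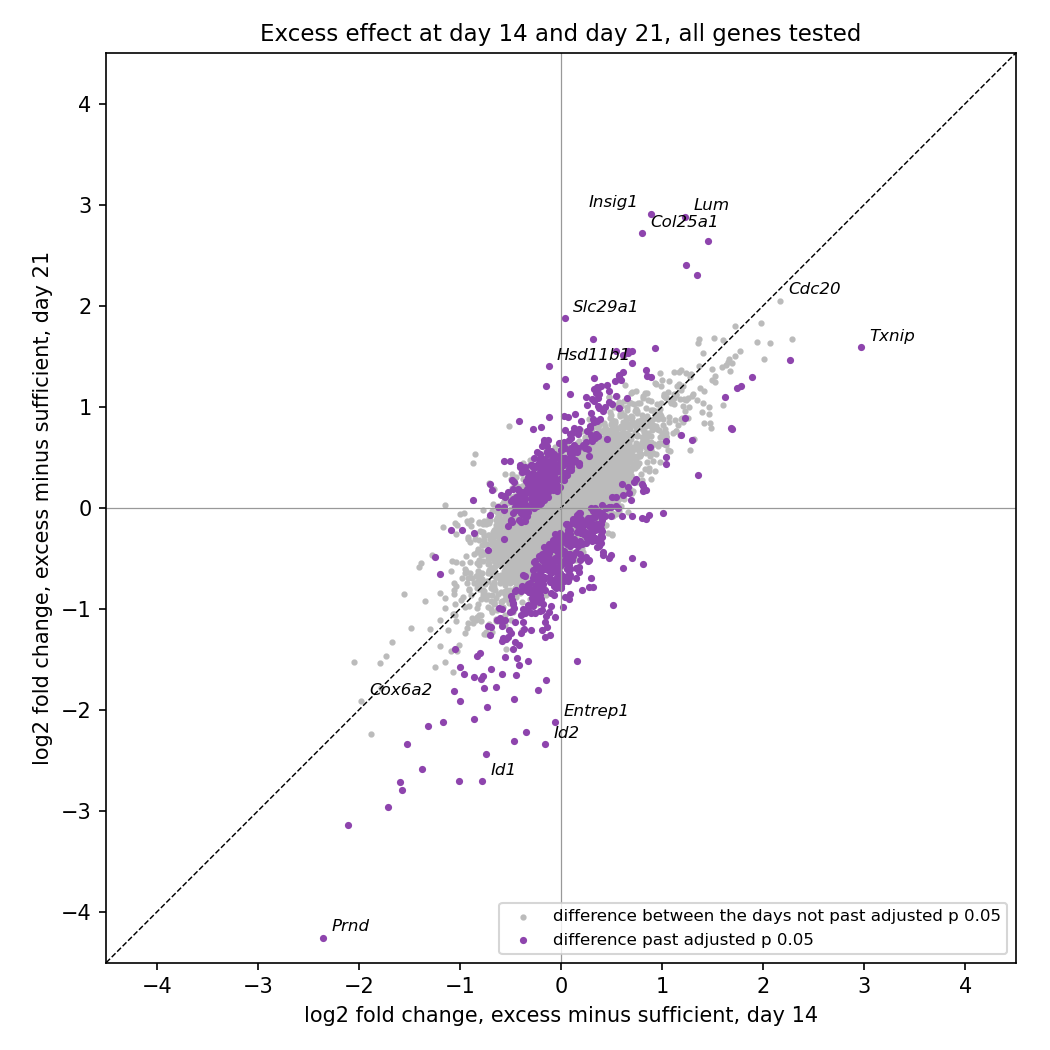
Log2 fold change between excess and sufficient medium at day 14 (x) and day 21 (y) for the 9093 genes tested. The dashed line marks equal effects, and the 783 genes in purple passed the test of the difference. Cdc20 lies near the line, while Insig1, Slc29a1 and Id2 lie far from it.

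The pattern was also set beside the course of time in sufficient medium from day 7 to day 14, from arrays that the day 21 comparison does not use. The measure of RNA integrity differed here too, with 2 day 7 arrays (4.69 and 5.22) and 0 day 14 arrays at a beta-actin ratio above 4. At day 21 the higher ratios were in excess medium. The part of RNA integrity in this comparison was not tested. All 42 mitosis genes and 38 of 39 replication genes fell over that week, with medians of -1.74 and -1.21, where 24.7% of all genes tested fell. Of sterol genes 13 of 19 fell (median -0.45), while 24 of 31 striated muscle genes (median 0.73) and 16 of 30 smooth muscle genes (median 0.22) rose, where 19.9% of all genes rose. Of the 2222 genes higher in excess medium at day 21, 1000 (45%) had fallen over that week and 215 (9.68%) had risen. Of the 1750 lower genes, 759 (43.4%) had risen and 211 (12.1%) had fallen. Across genes the day 21 excess effect and that change over time correlated at r = -0.447. Mki67 fell from 12.33 at day 7 to 10.47 at day 21 in sufficient and from 12.46 to 11.59 in excess medium.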

How the data were processed

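The authors deposited log2 values for 31099 probe sets on 43 arrays, made with GCRMA, per the submitters' processing notes. These notes also name limma, and versions are not given in the sources used here. GCRMA subtracts a sequence-based background and equalises arrays by quantiles, so low values are compressed and a shift common to all genes would be removed. Groups, replicate numbers and serials came from the sample titles. The platform's annotation gave 1 symbol for 20832 probe sets, several for 436 and none for 9831. Promoters are RefSeq sequences of GRCr8, matched by symbol. The 57 control probe sets were not tested. Where a gene had several probe sets, the one with the highest overall mean stood for it, and genes above a log2 value of 4 in at least 4 arrays were kept (9093 of 14217).

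A linear model of the 9 group means, which left 34 residual degrees of freedom, was fitted with limma 3.58.1 (R 4.3.3). Tests were two-sided, with Benjamini-Hochberg adjustment over the genes tested in each comparison and a threshold of 0.05. The differences between days are contrasts of the same model. Errors of fold changes are standard errors and those of levels SDs. The code was tested on simulated data. Array number limits the precision.

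The 42 gene lists, the members and the rule for named genes were chosen with earlier results of these data known. The rule took the 12 highest and 12 lowest genes past the threshold whose groups did not overlap and whose higher mean was above 5. It also took up to 3 members of each list in each direction by moderated t, and up to 5 genes in each direction for each difference between days. A further 25 genes were named whatever their values, of folate and methionine metabolism and smooth muscle, with Txnip, Trib3, Ddit3 and Mgp. Other list members named as examples were chosen after their values were seen. Replicate numbers are shared between groups in the titles, but the deviations of same-numbered arrays from their group means correlated at 0.09, -0.04, 0.07 and -0.29, so the numbers were not taken as pairs. Alternatives covered filters, arrays entered, array series, RNA integrity, quantile normalization, probe set choice, variance options, a replicate block and leaving out single arrays. Plots were drawn with matplotlib.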

Additional observations from a re-analysis of the deposited data

Results flagged for a closer look

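The excess effect differed between days in the limma interaction test for 2231 genes between day 21 and day 7 and for 783 between day 21 and day 14. From day 7 to day 21 the log2 effect shifted for Acta1 by -2.5, Col25a1 by 2.56, F3 by -2.73, Id1 by -2.54, Idi1 by 2.60, Insig1 by 2.64, Lum by 2.83, Prnd by -3.91, Ptn by 2.25 and Tnnt1 by -2.72. From day 14 to day 21 it shifted for Col25a1 by 1.91, Cyp2c11 by -1.88, Entrep1 by -2.06, Hsd11b1 by 1.52, Id1 by -1.92, Id2 by -2.18, Insig1 by 2.02, Lum by 1.65, Prnd by -1.90 and Slc29a1 by 1.84. These are the largest differences of genes with a group mean above 5 in at least 1 of the 4 groups.

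A single array lay far from the other 4 of its group in 25 of 428 groups of values examined, where chance gives about 5%. The value in brackets is the gap to the nearest array divided by the whole range of the group. In excess replicate 1 these were Cyp2c11 (0.727), Dusp1 (0.732), Kif20a (0.795), Shmt1 (0.782) and Slc3a2 (0.781). In excess replicate 2 these were Cdc20 (0.796) and Mrpl36 (0.749). In excess replicate 3 these were Cpt1a (0.736), Dnajb1 (0.735) and Mat2a (0.72). In excess replicate 4 it was Insig1 (0.745). In excess replicate 5 these were Slc38a4 (0.842) and Vegfa (0.753). In sufficient replicate 1 these were Acta2 (0.841), Cox6a1 (0.797), Ezh2 (0.77), Myl2 (0.834), Nqo1 (0.72) and Uqcrc2 (0.726). In sufficient replicate 2 these were Col14a1 (0.865), Hbegf (0.77), Slc39a14 (0.722) and Vegfa (0.818). In sufficient replicate 4 it was Tk2 (0.756). In sufficient replicate 6 it was Cdca3 (0.779). The largest number for 1 array was in sufficient replicate 1, which is the farthest along the first principal component among the sufficient arrays (-22.5, the others between -19.5 and -18.1).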

How the results depend on the processing

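The 3972 genes called at day 21 kept to within 1.5 times under every alternative except 2. With serials above 45 alone, 2 arrays a group, 1933 passed, and without arrays of a beta-actin ratio above 4, an alternative added after the data were seen, 2619. The beta-actin log2 ratio as a covariate gave 3570. The replicate block gave 2653 (1524 higher and 1129 lower). Leaving out single arrays gave 3533 to 4005. For the difference between days 21 and 7, 1222 genes passed without arrays of a ratio above 4, and leaving out single arrays gave 1937 to 2345. For that between days 21 and 14, 392 passed with serials up to 45, 293 without arrays of a ratio above 4 and 1532 with array weights, and leaving out single arrays gave 618 to 964. The smaller sets of arrays hold fewer samples, and the cause was otherwise not tested. Over all alternatives the list medians ran from 0.05 to 0.45 for Wnt and Notch, from -0.67 to -0.06 for calcification, from -0.45 to -0.06 for ion channels, from -0.29 to -0.12 for TGF-beta and BMP and from -0.20 to 0.27 for folate genes. Among named genes 5 changed sign. These were Ahcy (-0.0886) and Fpgs (0.0888) with serials above 45, and Gas6 (-0.0460), Mat2a (-0.0117) and Uqcrc2 (-0.0537) with the mean of all probe sets. Leaving out arrays of a ratio above 3 could not be fitted, since no excess array at day 21 remains. No scanner files were used, so background correction was not varied. Low values, under about 5, are close to background.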
